A study of Drosophila melanogaster with 10 samples.

Results

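The positions of Shep were compared with those of Mod(mdg4)2.2 on the chromosomes of Kc167 cells, an established Drosophila melanogaster cell line derived from embryos. The members are all 1443 peaks of the deposited Shep list and all 2678 peaks of the deposited Mod(mdg4)2.2 list, 4121 of the 9570 peaks in the 5 lists of the series. A peak was called shared when it overlapped a peak of the other list by 1 bp or more. The study mapped 5 proteins by chromatin immunoprecipitation and sequencing (ChIP-seq) to ask how RNA-binding proteins relate to the gypsy chromatin insulator, and the other 3 are Su(Hw), CP190 and Rump. Shep was precipitated in 2 libraries, with a guinea pig and a rabbit antibody, and so was Mod(mdg4)2.2. These 4 libraries came from cells grown at 25 °C, for which the labels name no treatment or genotype, and from the same one of 2 chromatin preparations, with that preparation's input as control. Each pair of libraries reached the deposited data as 1 list, so that no replicate can be seen, no difference below has a test, and intervals are 95% intervals of counting error only.

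Chromatin insulators are DNA elements and protein complexes that limit contacts between enhancers and promoters and mark borders between chromatin states. In the gypsy insulator complex the zinc-finger protein Su(Hw) binds DNA, and Mod(mdg4)2.2 and CP190, which both carry a BTB domain used in protein contacts, join it. The mod(mdg4) gene makes many isoforms that share the BTB domain and differ at the C-terminal end, and Mod(mdg4)2.2 is the one known from the gypsy insulator. Shep, encoded by alan shepard, carries RNA recognition motifs and is known in flies for roles in neuronal development and as a negative regulator of gypsy insulator activity in the nervous system.

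The peaks of a list all have 1 width, 484 bp for Shep and 304 bp for Mod(mdg4)2.2 and distances below are between midpoints. The authors' score, a signal value per peak of unstated scale, ran from 82.3 to 315 with a median of 108 in the Shep list, and from 45.7 to 544 with a median of 99.0 in the Mod(mdg4)2.2 list. Scores are used below only to rank peaks within a list. The lowest q-value that the Shep list holds, 0.00118, was shared by 426 of its peaks, while 454 had a q above 0.05, up to 0.156. In the Mod(mdg4)2.2 list no q was above 0.00624. The number of reads behind a peak is unknown here.

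About 1 Shep peak in 5 lay on a Mod(mdg4)2.2 peak. Of the 1443 Shep peaks, 292 were shared (20.2%, Wilson interval 18.2 to 22.4) and 1151 were not. Of the 2678 Mod(mdg4)2.2 peaks, 289 were shared (10.8%, 9.67 to 12.0) and 2389 were not. These are the calls that define the groups described here. Over the 5 large arms, 20.4% of Shep peaks were shared, whereas a peak of that width would meet the Mod(mdg4)2.2 list at 1.73% of all positions, which gives a ratio of 11.8 (10.7 to 13.1). Seen from Mod(mdg4)2.2, 10.9% of peaks on the arms were shared, against 0.929% of positions, a ratio of 11.8 (10.5 to 13.1). The ratio has an even placing of peaks over the whole arm as its base, and places where many chromatin proteins bind are not set apart in it. In the top 50% of each list by score, 45 of 721 Shep peaks (6.24%, 4.70 to 8.25) and 45 of 1339 Mod(mdg4)2.2 peaks (3.36%, 2.52 to 4.47) were shared, and a limit of 0.01 on the Shep q gave 28.7% and 6.68%. A list is met less often when it is shorter, and no share of positions was computed for these settings. Of the 289 shared Mod(mdg4)2.2 peaks, 75 were in the top 50% of that list by score and 214 in the rest. The parts of length and score in these shares were not tested.

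Sharing was nearly one to one. The shared peaks formed 296 overlapping pairs, with 4 Shep peaks that met 2 Mod(mdg4)2.2 peaks and 7 Mod(mdg4)2.2 peaks that met 2 Shep peaks. In 154 pairs (52.0%) the Mod(mdg4)2.2 peak lay wholly inside the Shep peak. The midpoints were a median of 83 bp apart (interval 71 to 97, quartiles 34.8 and 164), and in 2 pairs they were the same base position. Overlap alone would allow up to 393 bp. Pairs grew scarcer with distance within that range, from 2.02 pairs per bp of distance under 50 bp to 1.34 from 50 to 100 bp, 0.75 from 100 to 200 bp, 0.31 from 200 to 300 bp and 0.234 beyond. The Mod(mdg4)2.2 midpoint had the higher coordinate in 149 pairs and the lower in 145, with a median signed offset of 1 bp. At the edge of the rule, the most distant shared pair had midpoints 385 bp apart and the nearest unshared pair 395 bp apart.

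The median offset was compared between pairs of different kinds. It was 77 bp (66 to 98, 140 pairs) where the Mod(mdg4)2.2 peak met neither Su(Hw) nor CP190, and 108 bp (63 to 155, 61 pairs) where it met both. Pairs with a Shep q above 0.05 had a median offset of 66.5 bp (46 to 110, 54 pairs), and the others 89.5 bp (73 to 102, 242 pairs). These 4 intervals overlap one another. With only the top 50% of each list by score, the 45 pairs had a median of 129 bp (105 to 139).

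**Figure D1:**
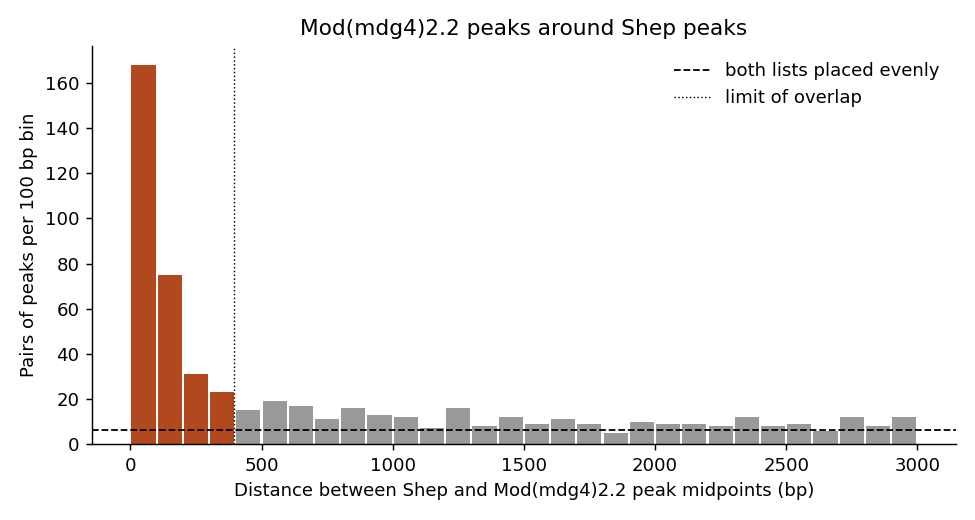
Number of pairs of a Shep and a Mod(mdg4)2.2 peak (vertical axis, per 100 bp bin, 5 arms) by the distance between their midpoints (horizontal axis, bp), with bins up to 400 bp in orange, the limit of overlap dotted, and the 6.44 pairs per bin of 2 evenly placed lists dashed. The first bin holds 168 pairs and the second 75, and from 400 bp to 1 kb a bin holds 11 to 19.

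Shep peaks outside the Mod(mdg4)2.2 list were mostly far from it. Their median distance to the nearest Mod(mdg4)2.2 midpoint was 17964 bp (interval 16330 to 19671, quartiles 6612 and 39636), over the 1150 on a chromosome or scaffold where that list has a peak. Of these, 66 (5.74%, 4.54 to 7.24) lay within 1 kb without overlap, 233 (20.3%, 18.0 to 22.7) within 5 kb, and 57 (4.96%, 3.85 to 6.37) more than 100 kb away. With the top 50% of each list the median was 31934 bp, as fewer Mod(mdg4)2.2 peaks were left to meet. Unshared Mod(mdg4)2.2 peaks were farther from Shep, as the Shep list is the shorter one. Their median distance was 34206 bp (32724 to 36379) over 2380 peaks, with 73 (3.07%, 2.45 to 3.84) within 1 kb and 419 (17.6%, 16.1 to 19.2) beyond 100 kb.

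The excess of Mod(mdg4)2.2 around Shep was close-range. Relative to the mean of each arm, the density of Mod(mdg4)2.2 midpoints was 18.9 within 200 bp of a Shep midpoint and 4.19 from 200 to 400 bp. It was 2.17 to 2.64 in the 3 bins from 400 bp to 1 kb, 1.54 from 1 to 2 kb, 1.33 from 2 to 5 kb and 1.10 from 5 to 10 kb. Shared Shep peaks also had further Mod(mdg4)2.2 peaks near them beyond the one they met, with a density of 2.35 from 2 to 5 kb (93 pairs), against 1.07 (165 pairs) around unshared Shep peaks. A shared Shep peak lies on a Mod(mdg4)2.2 peak by definition, and the density of that list around its own peaks was 2.03 from 2 to 5 kb. The contrast with unshared Shep peaks is therefore not independent of the sharing rule, and was not tested. From 10 to 20 kb the densities were 1.43 around shared Shep peaks, 1.03 around unshared ones and 1.42 around Mod(mdg4)2.2 peaks.

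**Figure D2:**
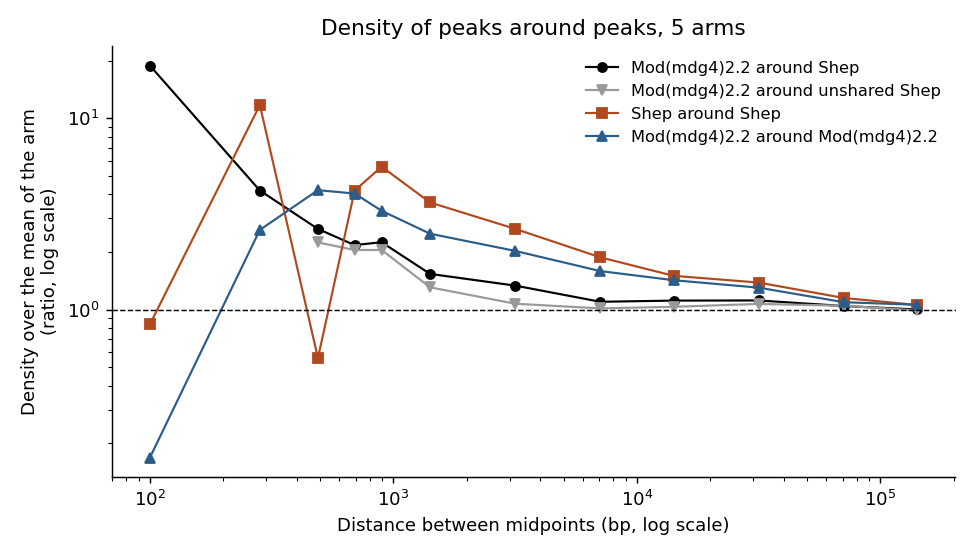
Density of midpoints around midpoints on the 5 arms, as a ratio to the mean of the arm (vertical axis, log scale), by distance (horizontal axis, bp, log scale, a point near the middle of each bin), for Mod(mdg4)2.2 around all Shep peaks, the same around unshared Shep peaks from 400 bp on, and each list around itself. Mod(mdg4)2.2 around Shep falls from 18.9 to 1.10 by the bin from 5 to 10 kb, where Shep around Shep is still at 1.88 and Mod(mdg4)2.2 around Mod(mdg4)2.2 at 1.59.

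The pairs of highest Shep score had Mod(mdg4)2.2 peaks of middling or low score, as shared Mod(mdg4)2.2 peaks had in general (median 72.2). On 3R, the Shep peak of rank 2 by score (264.8, chr3R:133447-133930 of build dm3) held a Mod(mdg4)2.2 peak at chr3R:133499-133802 with a score of 112, rank 1218 of 2678, and Su(Hw). The Shep peak of rank 3 (253.5, chrX:18528656-18529139) held one at chrX:18528756-18529059 with a score of 139, rank 989, and CP190. Rank 4 (247.3, chr3L:19625817-19626300) held one at chr3L:19625892-19626195 with a score of 63.2, rank 1999, and neither Su(Hw) nor CP190. Midpoints in these 3 pairs were 38, 10 and 15 bp apart. The other two of the top 5 were both on 3R with CP190, at Shep ranks 5 and 7 and Mod(mdg4)2.2 ranks 2226 and 1816.

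In the 5 pairs of highest Mod(mdg4)2.2 score, the Shep peaks had scores of 84.5 to 116, against a median of 124 for all shared Shep peaks. The highest was the Mod(mdg4)2.2 peak of rank 7 (score 469.7, chr2L:14706254-14706557), whose midpoint was 18 bp from that of a Shep peak of score 84.5, rank 1330 of 1443 (chr2L:14706182-14706665). The other four had Mod(mdg4)2.2 ranks 98, 102, 108 and 120 and Shep ranks 861, 592, 1250 and 1168. All 5 of these Mod(mdg4)2.2 peaks also met a Rump peak, as did 10.5% of the list, in which peaks with Rump have high scores (a median of 337 among the unshared ones). Of the 5, 3 met both Su(Hw) and CP190, 1 Su(Hw) only and 1 CP190 only. The pair of rank 102, at chrX:18529312-18529615, lies beside the pair of Shep rank 3 named above. Over all 296 pairs the 2 scores had a Spearman rho of -0.11 and a Pearson r of -0.18, a weak relation across peaks that share libraries and are not replicates.

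The peak of highest score in each list was unshared. The Shep peak of rank 1 (314.8, chr2R:16161714-16162197) met CP190 and lay 3779 bp from the nearest Mod(mdg4)2.2 midpoint. The next unshared Shep peaks, of ranks 6 and 8, were at chrX:10638678-10639161, 23549 bp away, and at chr2L:20104546-20105029, 2010 bp away. The 3 Mod(mdg4)2.2 peaks of highest score, at chr3R:3807143-3807446, chrX:18922669-18922972 and chrX:20631343-20631646, were all unshared and all met Su(Hw), CP190 and Rump. They were 3869, 124629 and 101686 bp from the nearest Shep midpoint.

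Sharing went with score in opposite directions in the lists. Shared Shep peaks had a median score of 124 (119 to 130), against 103 (102 to 106) for unshared ones, and 43.8% of them were at the lowest q, against 25.9%. The share of Shep peaks with Mod(mdg4)2.2 was 30.0% (25.9 to 34.6) of the 426 at the lowest q, 25.7% (20.0 to 32.3) of 191 with a higher q of up to 0.01, 16.7% (13.2 to 20.8) of 372 from 0.01 to 0.05 and 11.7% (9.04 to 15.0) of 454 above 0.05. The distance of those that missed Mod(mdg4)2.2 showed no such order, with medians of 18461, 17934, 16174 and 19058 bp in the same 4 classes. Shared Mod(mdg4)2.2 peaks had a median score of 72.2 (66.4 to 77.6), against 108 (102 to 113) for unshared ones. Their share lay between 3.36% and 5.60% in the 4 deciles of highest score, rose to 10.9% (7.67 to 15.2) in decile 5, and lay between 13.4% and 18.0% in deciles 6 to 10.

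**Figure D3:**
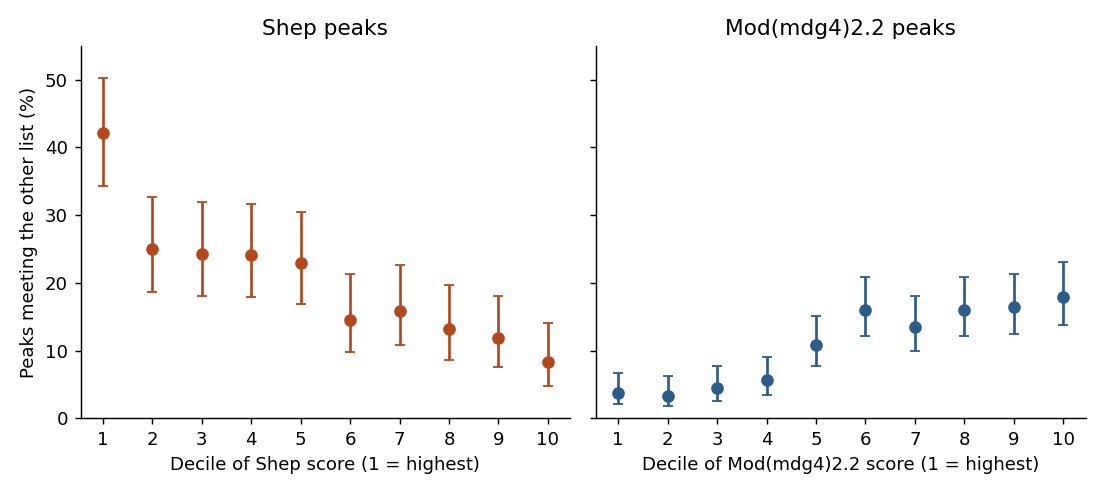
Share of peaks meeting the other list (vertical axis, percent, with Wilson 95% intervals) by decile of the authors' score within the list (horizontal axis, 1 is the highest), for Shep (left) and Mod(mdg4)2.2 (right). Shep falls from 42.1% to 8.33%, with deciles 2 to 5 between 22.9% and 25.0%, and Mod(mdg4)2.2 rises in a step between deciles 4 and 6, from 5.60% to 16.0%.

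Mod(mdg4)2.2 peaks that met Shep were often without the other insulator proteins. Su(Hw) lay at 31.1% (26.1 to 36.7) of shared and 72.8% (71.0 to 74.5) of unshared Mod(mdg4)2.2 peaks, and at 68.3% of the list as a whole. CP190 lay at 41.2% (35.7 to 46.9) of shared and 62.4% (60.4 to 64.3) of unshared ones, and at 60.1% of the list. Neither was present at 139 of the 289 shared peaks (48.1%, 42.4 to 53.8), against 307 of the 2389 unshared ones (12.9%, 11.6 to 14.3). Turned around, Shep lay at 31.2% (27.0 to 35.6) of the 446 Mod(mdg4)2.2 peaks with neither protein, at 14.9% (11.7 to 18.7) of 403 with CP190 only, at 4.98% (3.53 to 6.98) of 623 with Su(Hw) only and at 4.89% (3.81 to 6.26) of 1206 with both. The Su(Hw) and CP190 peaks are wide, with medians of 2106 and 2025 bp, so that a peak with neither is one outside a broad zone. With those peaks cut to 300 bp around their midpoints, an alternative added with the data in view, Shep lay at 23.0% (20.2 to 26.1) of 774 Mod(mdg4)2.2 peaks with neither and at 4.02% (2.89 to 5.56) of 846 with both. Su(Hw) was then at 18.7% of shared and 57.0% of unshared Mod(mdg4)2.2 peaks, and in the top 50% of each list, with deposited widths, at 53.3% and 91.3%.

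Mod(mdg4)2.2 peaks with neither protein have low scores, and score moves with sharing, so the classes were also set side by side within score. In the upper 5 deciles Shep lay at 15 of 33 peaks with neither (45.5%, 29.8 to 62.0) and at 39 of 911 with both (4.28%, 3.15 to 5.80). In the lower 5 deciles it lay at 124 of 413 with neither (30.0%, 25.8 to 34.6) and at 20 of 295 with both (6.78%, 4.43 to 10.2). Among peaks with neither protein, the shared ones had the higher Mod(mdg4)2.2 score, with a median of 64.6 (59.6 to 71.2) against 57.7 (55.5 to 59.4). Among peaks with both the order was the opposite, 142 (104 to 199) against 174 (166 to 181), with overlapping intervals. The gap between the classes was present on each arm. For Mod(mdg4)2.2 peaks with neither, the share with Shep ran from 27.2% on X to 39.3% on 2R, and for those with both from 3.24% on 3L to 7.04% on 2L, with no overlap of intervals within an arm.

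From the side of Shep the order of the classes was the reverse. Most Shep peaks met neither Su(Hw) nor CP190, and of these 974 only 138 (14.2%, 12.1 to 16.5) met Mod(mdg4)2.2. The share was 21.8% (17.4 to 26.9) of 285 Shep peaks with CP190 only, 35.1% (26.2 to 45.2) of 94 with Su(Hw) only and 65.6% (55.3 to 74.6) of 90 with both. Shep peaks with both proteins were thus few, and most of them met Mod(mdg4)2.2. With Shep peaks of q up to 0.05 these shares were 18.1%, 23.4%, 40.8% and 72.4%. With Su(Hw) and CP190 peaks cut to 300 bp, the share was 81.8% of 44 Shep peaks with both and 15.5% of 1146 with neither. Of the 2678 Mod(mdg4)2.2 peaks, 1206 lay at both proteins. How often a place with both holds Mod(mdg4)2.2 apart from Shep was not computed. Rump, the RNA-binding protein at the centre of the study, lay at 18 shared Shep peaks (6.16%, 3.93 to 9.53) and at 4 unshared ones (0.348%, 0.135 to 0.890), against 1.52% of the Shep list. On the Mod(mdg4)2.2 side the order was the opposite, with Rump at 6.23% (3.98 to 9.63) of shared and 10.97% (9.78 to 12.3) of unshared peaks. The Rump list has 338 peaks, and 280 Mod(mdg4)2.2 peaks met one, so a Shep peak at Rump often lies at Mod(mdg4)2.2 too. The contrast on the Shep side is not set against that base. Su(Hw) lay at 12.8% and CP190 at 26.0% of the Shep list.

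**Figure D4:**
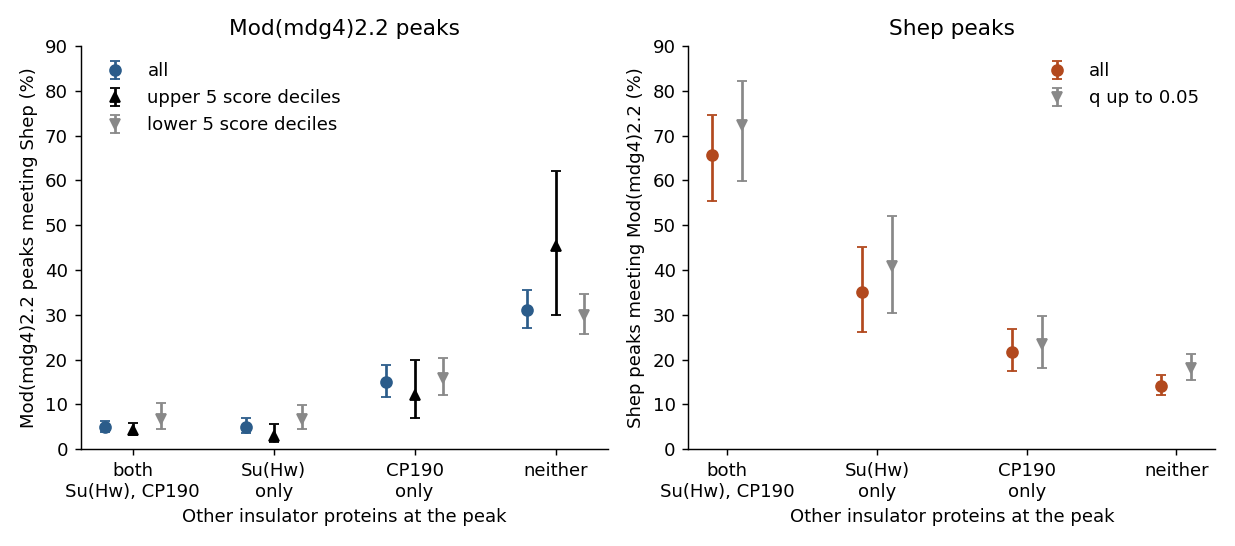
Share of Mod(mdg4)2.2 peaks meeting Shep (left, percent) and of Shep peaks meeting Mod(mdg4)2.2 (right, percent), with Wilson 95% intervals, by the other insulator proteins at the peak (horizontal axis). On the left the share is highest with neither protein, 31.2% overall and 45.5% and 30.0% in the upper and lower score deciles, and on the right it is highest with both, at 65.6%.

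Both lists were clustered along the chromosomes. A cluster is taken here as 2 or more peaks of 1 list with neighbouring midpoints at most 5 kb apart. It held 441 Shep peaks (30.6%, 28.2 to 33.0) in 195 clusters, against the 11.7% that the same number of evenly and independently placed peaks would give, and 1016 Mod(mdg4)2.2 peaks (37.9%, 36.1 to 39.8) in 437 clusters, against 20.1%. Most clusters were pairs, 157 of those of Shep and 334 of those of Mod(mdg4)2.2, and none held more than 5 peaks. Among the clustered peaks are 90 of Shep and 56 of Mod(mdg4)2.2 that overlap another peak of their own list. With such peaks merged, 26.0% (23.8 to 28.3) of Shep and 36.7% (34.8 to 38.5) of Mod(mdg4)2.2 peaks were in clusters. Even placing was not computed for the merged lists. The nearest neighbour within the list was a median of 14334 bp away for Shep (12748 to 15960) and 9053 bp away for Mod(mdg4)2.2 (8361 to 9638).

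The spacing of shared and unshared peaks within a list was compared next. For shared Shep peaks, the nearest Shep neighbour was a median of 19685 bp away (14669 to 23978), against 13130 bp (11597 to 15232) for unshared peaks, and 25.0% (20.4 to 30.3) were in a cluster, against 32.0% (29.3 to 34.7), with overlapping intervals. Score differs between these groups. In the upper 5 deciles of score, the shares in a cluster were 25.5% (20.0 to 32.0) and 27.0% (23.4 to 31.0), and in the lower 5 deciles 23.9% (16.4 to 33.6) and 36.1% (32.4 to 39.9). At the lowest q they were 25.0% (18.3 to 33.2) of shared and 24.8% (20.3 to 30.0) of unshared peaks. For Mod(mdg4)2.2 the intervals of the groups overlapped, with medians of 9014 bp (6927 to 11843) for shared and 9065 bp (8325 to 9711) for unshared peaks, and with 40.1% (34.7 to 45.9) and 37.7% (35.8 to 39.6) in a cluster. Shep peaks of high q were the more clustered. In a cluster were 24.9% (21.0 to 29.2) of those at the lowest q and 35.0% (30.8 to 39.5) of those with a q above 0.05. Kept alone, the 617 peaks with q up to 0.01 had 9.89% (7.77 to 12.5) in clusters, against 5.22% if evenly placed, so that the ratio to even placing went from 2.60 in the full list to 1.89.

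Shared peaks were spread over many clusters. A shared peak occurred in 58 of the 195 Shep clusters, and in 11 of them every peak was shared. Following a list along the chromosome, a Shep peak was shared in 24.7% (20.1 to 29.9) of cases after a shared peak and in 19.1% (16.9 to 21.5) after an unshared one, with overlapping intervals, and a Mod(mdg4)2.2 peak in 12.1% (8.84 to 16.4) and 10.6% (9.42 to 11.9). Taken by themselves, the 292 shared Shep peaks had a median distance of 128991 bp to the next of their kind (100234 to 147866), and 10.3% (7.29 to 14.3) of them had another within 5 kb, against 2.56% if evenly placed. The full Shep list had 30.6% in clusters against 11.7%, so even placing is no base for shared peaks in particular. Among the 292 are also Shep peaks that overlap each other on the same Mod(mdg4)2.2 peak, as 7 Mod(mdg4)2.2 peaks met 2 Shep peaks. When the lists were joined, 424 clusters held peaks of both, of which 275 had an overlapping pair and 149 had peaks of both lists within reach but none that overlapped.

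The largest clusters were named by their number of peaks, with ties in order of position. The 3 largest of Shep, with 5 peaks each, were at chr2R:10368900-10372567, chr3L:3398479-3405019 and chr3R:4878034-4883706, and held 0, 0 and 1 shared peaks. Those named for Mod(mdg4)2.2, 3 of the 7 clusters with 5 peaks, were at chr2L:6579033-6589709, chr2L:20283126-20294305 and chr2R:9416108-9429167 and held no shared peak. These counts are of 15 peaks in each list, beside shares of 20.2% and 10.8% in the lists as a whole, and are too small to set the clusters apart. The largest joined cluster, at chrX:12645018-12654827, had 5 peaks of each list in 9810 bp, of which 2 Shep peaks were shared. The next, at chr2R:10368115-10372567, added 2 Mod(mdg4)2.2 peaks to the first Shep cluster above without any overlap, and the third, at chr3R:788440-799241, had 2 Shep and 5 Mod(mdg4)2.2 peaks with 1 Shep peak shared.

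Shared Mod(mdg4)2.2 peaks were more often on 2R than unshared ones. Of the shared Mod(mdg4)2.2 peaks, 23.2% (18.7 to 28.4) were on 2R, against 16.8% (15.4 to 18.4) of the unshared ones, and 15.6% (11.8 to 20.2) were on 3L, against 20.1% (18.5 to 21.7), where the intervals overlap. The Shep list itself has 22.9% of its peaks on 2R and 16.4% on 3L. There were 70.4 Shep peaks per 100 Mod(mdg4)2.2 peaks on 2R, 56.8 on 3R, 50.1 on 2L, 48.3 on X and 45.0 on 3L. The share of Mod(mdg4)2.2 peaks with Shep was highest on 2R, at 14.3% (11.4 to 17.7), and lowest on 3L, at 8.59% (6.48 to 11.3), whereas the share of Shep peaks with Mod(mdg4)2.2 stayed between 18.2% on 3L and 21.5% on 3R, with overlapping intervals. On X lay 17.8% (13.8 to 22.6) of shared and 17.3% (15.2 to 19.6) of unshared Shep peaks. In the top 50% of each list, 15 of the 45 shared Shep peaks (33.3%, 21.4 to 47.9) were on X. The share on X of unshared Shep peaks in the top 50% was not computed, so this value has no base beside it.

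No peak outside the 5 large arms was shared. Chromosome 4 has 8 Shep and 12 Mod(mdg4)2.2 peaks, none of them shared. Taken as up to 3 counts of the total, a count of 0 allows shares of up to 37.5% and 25.0%, and the Wilson intervals reach 32.4% and 24.2%. The heterochromatic scaffolds (Het) of dm3 hold 5 Shep and 13 Mod(mdg4)2.2 peaks, and the unplaced sequence (U) holds 9 Mod(mdg4)2.2 peaks and no Shep peak. Along the arms, cut into 5 equal parts from the centromere to the tip, the share of Shep peaks with Mod(mdg4)2.2 was between 19.3% and 22.4% and that of Mod(mdg4)2.2 peaks with Shep between 9.98% and 12.3%, with overlapping intervals in each list.

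**Figure D5:**
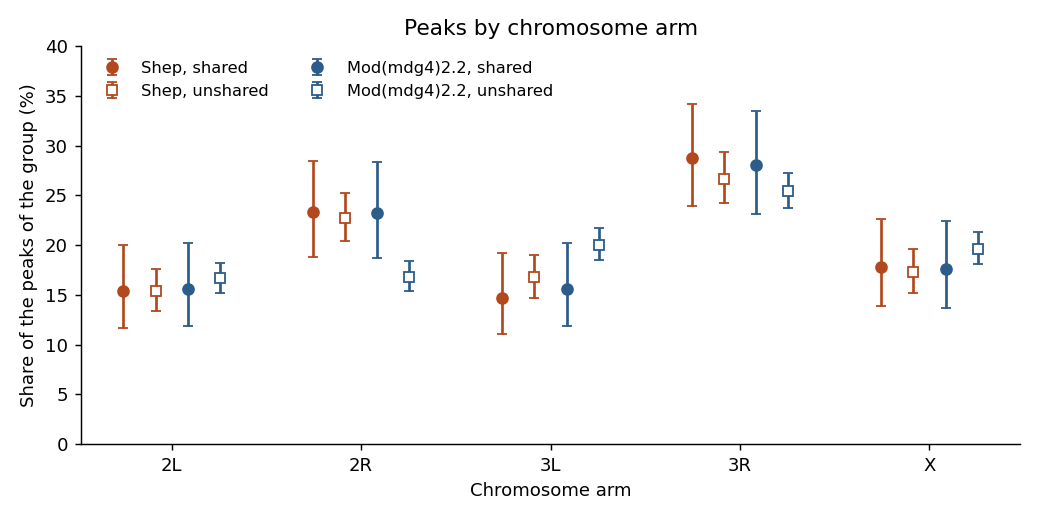
Share of the peaks of each group that lie on each arm (vertical axis, percent, with Wilson 95% intervals) for shared (filled) and unshared (open) peaks of Shep (orange) and Mod(mdg4)2.2 (blue). On 2R shared Mod(mdg4)2.2 peaks are at 23.2%, close to both Shep groups, and unshared ones at 16.8%.

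Peaks and pairs were also counted in windows of 100 kb. The 3 windows with the most Shep peaks were chr3R:12000001-12100000, with 12 Shep peaks, 8 Mod(mdg4)2.2 peaks and 2 pairs, chr2L:400001-500000, with 10, 6 and 3, and chr3L:3400001-3500000, with 10, 4 and 1. The window with the most pairs was chr2R:14200001-14300000, where 4 Shep and 6 Mod(mdg4)2.2 peaks made 5 pairs, followed by chr3R:5200001-5300000, where 5 and 5 made 4 pairs. The third, chr2L:100001-200000, had 3 pairs, as did another 4 windows, among them the second of the windows dense in Shep. Of the 1187 windows on the arms, 595 had peaks of both lists, 105 of Shep only, 328 of Mod(mdg4)2.2 only and 159 of neither.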

How the data were processed

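ChIP-seq peak lists of Kc167 cells were used, 1 per factor. The submitters' processing notes name build dm3 and the tools Bowtie 0.12.8, Picard 1.77, Trimmomatic 0.20, bedtools 2.17.0 and cutadapt 1.1, with no role or order. How peaks were called, at what threshold and how libraries were combined is not given in the sources used here, nor is the read depth. The Shep and Mod(mdg4)2.2 lists follow the narrowPeak layout, in which the authors deposited a signal value per peak (the score) and a ninth column that in this layout is the −log10 q-value. For Rump, Su(Hw) and CP190 only deposited positions were used. Starts are given counted from 1.

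Overlaps, distances between midpoints and clusters (gap 5 kb) were computed with Python 3.11.15, NumPy 2.4.6, pandas 2.3.3 and SciPy 1.17.1, drawn with matplotlib 3.10.9, and checked with bedtools 2.31.1 and on simulated data with planted overlaps, all of which were recovered in 10 of 10 runs. Shares have Wilson 95% intervals and medians order-statistic 95% intervals. Arm lengths are the highest peak end over the 5 lists, and centromere ends are those of the arm names. Even placing was computed by formula from peak numbers and covered length. With 1 list per factor no test was run. Regions named are the 5 pairs of highest score in each list, the 3 unshared peaks of highest score, the 3 largest clusters and the 3 densest windows, with ties in order of chromosome and start. Members and groups were chosen with earlier results of these data known. Alternatives were other overlap rules, widths, q limits, score limits, chromosomes and cluster gaps. No dm3 sequence or annotation was used here, so genes and sequences at the peaks are not described.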

Additional observations from a re-analysis of the deposited data

How the results depend on the processing

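Of 150 values recomputed for 11 results, 107 stayed within the interval of the reported value and 43 moved out of it. No paired analysis was possible because each factor has 1 combined list with no value per library, so no library could be left out either. The share of Shep peaks with Mod(mdg4)2.2 was 17.8% with an overlap of at least 50% of the narrower peak, 24.8% with midpoints within 1 kb, 24.2% and 28.7% with Shep q up to 0.05 and 0.01, and 6.24% in the top 50% of each list, where 45 peaks of each were shared. The share of Mod(mdg4)2.2 peaks with Shep was 9.56%, 13.5%, 8.96%, 6.68% and 3.36% in the same settings. Where the other list is shorter, as in the top 50%, it is met less often. The top 50% also differs in score, and held only 75 of the 289 Mod(mdg4)2.2 peaks shared in the full lists. The parts of length and score in these shares were not tested. The median midpoint distance of pairs was 69 bp with that overlap, 127 bp within 1 kb and 129 bp in the top 50%, where the unshared Shep distance was 31934 bp. In clusters were 20.6% and 9.89% of Shep peaks with q up to 0.05 and 0.01, 13.5% in the top 50%, 18.0% and 42.5% with gaps of 2 and 10 kb, and 26.0% with overlapping peaks merged, and of Mod(mdg4)2.2 peaks 24.4% in the top 50% and 21.5% and 53.0% with those gaps. Fewer peaks and shorter gaps lower these shares by construction, and merging counts overlapping peaks of a list once. With the q limits of 0.05 and 0.01, the ratio to even placing was also lower, at 2.51 and 1.89, against 2.60 in the full Shep list. The share of shared Shep peaks on X was 33.3% in the top 50% (15 of 45), 23.2% without 2R and 25.0% without 3R. Leaving out another arm raises the share of X by construction. Settings for the partner classes were added after seeing the data. With midpoints within 1 kb, with all peaks resized to 300 bp, with Shep q up to 0.05 and 0.01 and in the top 50%, Shep lay at 36.3%, 21.5%, 26.7%, 21.3% and 36.4% of Mod(mdg4)2.2 peaks with neither Su(Hw) nor CP190, and at 6.80%, 3.31%, 3.57%, 2.16% and 1.98% of those with both. With Su(Hw) and CP190 alone resized, the share at peaks with neither was 23.0%. Su(Hw) lay at 17.8% of shared and 56.7% of unshared Mod(mdg4)2.2 peaks with all peaks resized, at 18.7% and 57.0% with Su(Hw) and CP190 resized, and at 53.3% and 91.3% in the top 50%. The order of neither above both, and of unshared above shared, was the same in each of these settings. Depth limits are unknown here, as no read numbers were used.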

Other observations

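Very close peaks were spaced differently in the lists. No peaks of a list had midpoints under 199 bp apart. The Shep list had 46 neighbouring pairs from 199 to 400 bp (29 under 300 bp and 17 above), none from 400 to 500 bp, 2 from 500 to 600 bp, 13 from 600 to 800 bp and 19 from 800 to 1000 bp. The Mod(mdg4)2.2 list had 29 from 199 to 300 bp, 4 from 300 to 400 bp, 25 from 400 to 500 bp and 25 from 500 to 600 bp. The 2 Shep peaks of such a pair under 400 bp overlap each other, since each is 484 bp wide. The 90 Shep peaks involved had a median score of 97.2, against 109 for the other 1353, and 17.8% (Wilson 95% interval 11.2 to 26.9) of them met Mod(mdg4)2.2, against 20.4% (18.3 to 22.6).

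At a larger scale, all 121 windows of 1 Mb on the arms held Mod(mdg4)2.2 peaks and 118 held Shep peaks. The counts of the lists had a Spearman rho of 0.35 and a Pearson r of 0.41 over these windows, and of 0.22 and 0.19 over the 1187 windows of 100 kb. All windows are read from 1 list per factor and are not replicates, and these values are given as a description. The window with the most Shep peaks, chr3L:3000001-4000000, had 31 Shep and 32 Mod(mdg4)2.2 peaks but 3 pairs, and chr2L:1-1000000 had 28 of each and 8 pairs.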
